A study of Mus musculus with 41 samples.

Results

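Loss of Pelo was set directly against loss of its partner Hbs1l in the mRNA of primary mouse embryonic fibroblasts (MEFs), using 2 Pelo-/- and 3 Hbs1l-/- RNA libraries out of the 41 libraries of the series, of which 11 are RNA libraries. The libraries were taken by their labels and by no measured value, and the estimated counts of all transcripts of a gene were summed per gene. The series compares ribosome occupancy and mRNA after loss of Hbs1l, Pelo or the nonsense-mediated decay factor Upf2, in these fibroblasts by conditional deletion. Both mutants and the control carried the CAG-Cre ER transgene, a ubiquitously driven recombinase that acts once tamoxifen is given, and all cultures were treated with tamoxifen, so the control (CAG-Cre ER alone) shares the transgene and the drug. The mutants differ in the floxed allele, Hbs1l cKO or Pelo cKO, and are labelled C57BL/6. By the study's methods the Hbs1l-/- cells were Hbs1l fl/-, with a null allele present before tamoxifen, the Pelo-/- cells were Pelo fl/fl, and mutants and control alike were homozygous for the C57BL/6J form of n-Tr20, an arginine tRNA gene that is mutated in that strain. By the study's methods, cells were isolated from embryos, treated with 4-hydroxytamoxifen and collected at the next passage, and each RNA replicate was a dish from a separate embryo. The Hbs1l allele came from C57BL/6N and the Pelo allele from C57BL/6J cells, and the embryos were not sexed. All RNA libraries carry the label batch 6. One further Pelo-/- RNA sample was left out by the submitters as an outlier and was not analysed here.

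PELO and HBS1L act as a pair on ribosomes that have stalled. PELO, a relative of the termination factor eRF1, enters the empty A site, and HBS1L is the GTPase of the eRF3 type that delivers it, after which the ATPase ABCE1 splits the ribosome. The pathway is known for clearing ribosomes from truncated or unterminated mRNAs, where the exosome and the Ski complex then degrade the message, and it is joined by collision sensors and by the ribosome-associated quality control factors.

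The RNA libraries held between 23166888 and 86425762 estimated counts, and the 3 control RNA libraries between 22713643 and 77329534. The Hbs1l-/- libraries held 26576733, 86425762 and 45995237 counts and the Pelo-/- libraries 26829522 and 23166888. Fibroblast identity was checked on 17 markers, all of which were detected, with a summed level of 6923 to 8835 TPM (transcript abundance scaled to a fixed total) in Hbs1l-/- and 7593 to 8231 TPM in Pelo-/- cells. Of the 17, 2 were higher and 7 lower in Pelo-/- cells, Pdgfra among the latter, beside 18.9% and 16.3% of all genes, and 1 was higher and 2 were lower without Hbs1l-/- replicate 2 or Pelo-/- replicate 2. The 11 erythroid markers, haemoglobins included, summed to under 0.5 TPM in each library. Xist, the RNA of the inactive X, stood at 34.1, 53.7 and 38.2 CPM (counts scaled to a fixed library total) in the Hbs1l-/- libraries but at 0.0741 and 32.2 CPM in Pelo-/- replicates 1 and 2, so the Pelo-/- pair was mixed in this respect. The control was mixed as well, with Xist at 2.76, 6.69 and 0.0134 TPM in its replicates 1, 2 and 3. Since each library is a whole culture, fewer cells of a type and less RNA per cell cannot be told apart in any of the values that follow.

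The targeted genes were lower in their own mutant. Pelo mRNA was 30.6, 25.8 and 26.1 CPM in Hbs1l-/- and 0.555 and 0.0877 CPM in Pelo-/- libraries, against 23.6, 24.1 and 24.9 CPM in the control. The groups did not overlap, and the difference was -6.32 on the log2 scale (SE 0.36, adjusted p = 0.000179 by edgeR's quasi-likelihood test). Hbs1l mRNA was 9.39, 11.4 and 11.8 CPM in Hbs1l-/- and 74.6 and 89.5 CPM in Pelo-/- libraries, against 71.6, 78.1 and 80.4 CPM in the control. All 3 Hbs1l-/- libraries lay below both Pelo-/- libraries and the control (log2 difference 2.91, SE 0.13, adjusted p = 0.000122). In Pelo-/- cells Hbs1l mRNA differed from the control by 0.09 (adjusted p = 0.524), and in Hbs1l-/- cells Pelo mRNA differed from it by 0.22 (adjusted p = 0.167).

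The residual Hbs1l signal was divided among isoforms. Hbs1l spans chr10:21295979-21368898 on the plus strand of mm10, and its exon 5, the deleted exon, lies at chr10:21336976-21337075 as annotated in transcript Hbs1l-201. The 18-exon transcripts Hbs1l-209 and Hbs1l-201 both cover that exon. Hbs1l-209 stood at 0.00101, 0.274 and 1.38 TPM in Hbs1l-/- and at 30.1 and 33.7 TPM in Pelo-/- libraries (log2 difference 5.66, SE 1.06, adjusted p = 0.0415). Hbs1l-201 stood at 2.55, 2.62 and 1.43 TPM against 6.32 and 6.58 TPM (1.44, SE 0.28, adjusted p = 0.0444), so that reads were still assigned to long transcripts in Hbs1l-/- cells. Reads over exon 5 itself were not counted, so long messages with and without that exon cannot be told apart here. Hbs1l-203, a 5-exon transcript that ends before the deleted exon, stood at 1.135, 2.498 and 2.195 TPM in Hbs1l-/- and at 1.27 and 0.761 TPM in Pelo-/- libraries. Hbs1l-203 overlapped between the mutants (log2 difference -1.10, SE 0.45, adjusted p = 0.205). Hbs1l-202, another 5-exon transcript that ends before that exon, stood at 1.13, 0.1965 and 0.7135 TPM against 0.0473 and 0.202 TPM. It overlapped as well, with a larger difference (-2.48, SE 1.01, adjusted p = 0.205). Calls of transcripts in edgeR rested on both Pelo-/- libraries, as described below. Pelo lies at chr13:115088355-115090186 on the minus strand, within the span of Itga1 on the same strand, which encodes the integrin alpha-1 chain. Itga1 was 8.60, 7.64 and 4.45 CPM in Hbs1l-/- and 11.6 and 10.9 CPM in Pelo-/- libraries (log2 difference 0.72, SE 0.25, adjusted p = 0.0561). Its neighbour Itga2 stood at 0.676 to 1.56 CPM and at 2.37 CPM in both Pelo-/- libraries (1.02, SE 0.32, adjusted p = 0.0397, and 0.12 to 0.145 without Hbs1l-/- replicate 2 or either Pelo-/- replicate). The Itga2 call was also lost with a length trend taken out of each library (0.63, adjusted p = 0.19), on library totals (0.98, adjusted p = 0.0563) and after thinning to the smallest library (0.82, adjusted p = 0.145), and Itga1 was called with DESeq2 (0.71, adjusted p = 0.0319). Isl1, on the other side, was under 0.6 CPM throughout (-0.01, SE 0.50, adjusted p = 0.99), as were Myb and Aldh8a1 beside Hbs1l, which were too low to be tested.

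Over the whole table, 5235 of 14878 genes tested passed an adjusted p of 0.05 between the mutants, or 35.2%, of which 2811 (18.9%) were higher and 2424 (16.3%) lower in Pelo-/- cells. The median difference of the genes called was 0.70 in size, and 727 of them were at least 2-fold higher and 691 at least 2-fold lower in Pelo-/- cells. The count rested on both Pelo-/- libraries. Without Pelo-/- replicate 1 it was 2375 and without replicate 2 it was 1944, fits in which the lone Pelo-/- library is assumed to vary like the Hbs1l-/- libraries. All genes called in these smaller fits and in the full one had the same direction in both. Libraries of the 2 mutants did not overlap for 9225 genes, or 62.0%. With 2 libraries against 3, the smallest exact permutation p for a single value is 0.1 one-sided, and larger for the 2-sided tests used here. A single gene's p here thus comes only from the fit over all genes.

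**Figure D1:**
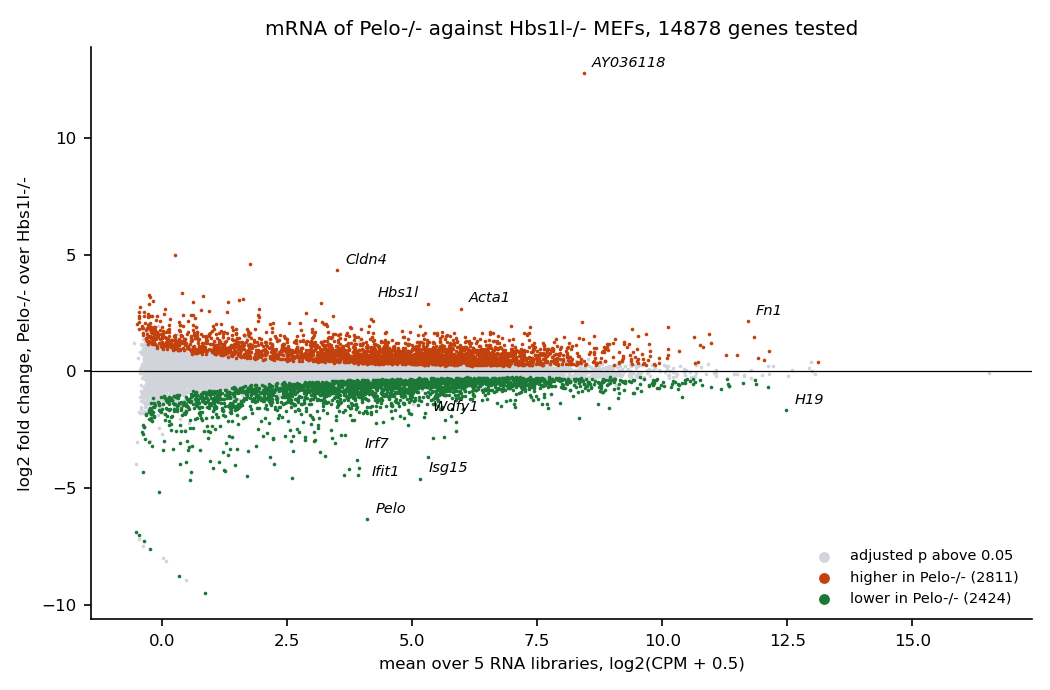
Mean level over the 5 RNA libraries (horizontal, log2 of CPM plus 0.5) against the log2 difference of Pelo-/- over Hbs1l-/- (vertical), 1 point a gene, with genes past an adjusted p of 0.05 in colour. The 2811 higher and 2424 lower genes spread over the whole range of levels, and Pelo, Isg15, Ifit1 and Irf7 sit at the lower edge.

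The control served to place each difference. Of the 2811 genes higher in Pelo-/- cells, the control mean lay nearer to Hbs1l-/- for 1680 (59.8%) and nearer to Pelo-/- for 1131 (40.2%). Of the 2424 lower genes the shares were 54.2% and 45.8%, and of all genes tested 55.9% and 44.1%. Gene groups departed from these totals in both directions, as in interferon-stimulated genes, for which 38 of 41 called genes had the control nearer to Pelo-/-, and in nuclear subunits of oxidative phosphorylation, for which 41 of 44 had it nearer to Hbs1l-/-. Each mutant is set beside the control below, and since both of these comparisons use the same 3 control libraries, their values are given side by side only. Against the control, 4727 of 14705 genes (32.1%) were called in Pelo-/- and 3542 of 15318 (23.1%) in Hbs1l-/- cells. These counts were 1743 and 1506 without Pelo-/- replicate 1 or 2, and 1817 and 2185 without control replicate 2 or Hbs1l-/- replicate 2.

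**Figure D2:**
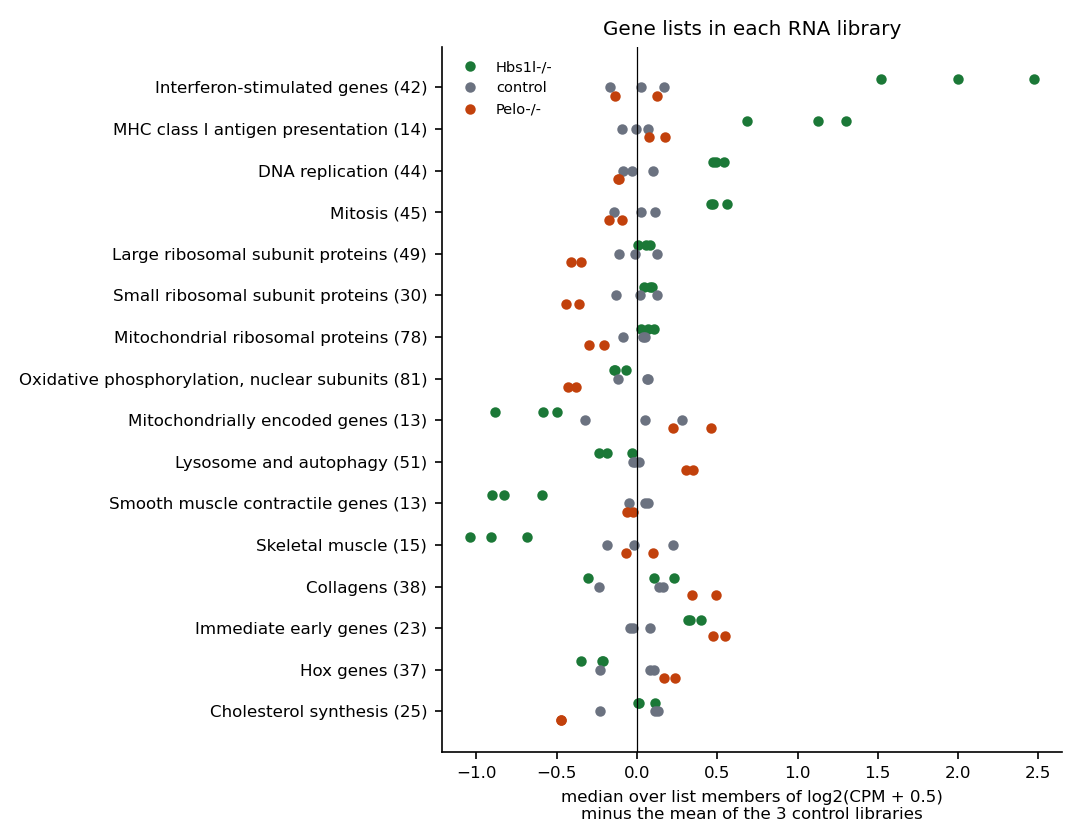
Median over the members of 16 gene lists (number tested in brackets) of log2 of CPM plus 0.5, relative to the mean of the 3 control libraries, with 1 point a library. For interferon-stimulated, MHC class I, replication, mitosis and muscle genes the Hbs1l-/- points lie apart from the control and the Pelo-/- points lie near it, while for ribosomal protein, oxidative phosphorylation, lysosome and cholesterol genes the Pelo-/- points lie apart.

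The widest group difference was in interferon-stimulated genes, the antiviral effectors and sensors that type I interferon switches on. All 42 members were tested, 41 were lower in Pelo-/- than in Hbs1l-/- cells and none was higher, beside 16.3% lower over all genes, and the median difference was -2.85 against -0.02 over all genes. With only genes of at least 5 CPM on average tested, 25 members were lower. Their summed level was 694, 880 and 498 TPM in Hbs1l-/- and 138 and 105 TPM in Pelo-/- libraries, against 92.1, 121 and 146 TPM in the control. Of the 12 largest decreases with at least 5 CPM on average, 9 belonged to this list, namely Isg15, Rtp4, Oas1a, Usp18, Oasl2, Ifit1, Irf7, Ifit3 and Xaf1. The other 3 were Pelo itself, the secreted Wnt-pathway protein gene Ccn5 and the predicted gene Gm37401. Without any 1 of the 5 libraries, 34 to 41 members were lower.

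The type I interferon signal reaches DNA at the interferon-stimulated response element, searched here as GAAA, any 2 bases and GAAA again, on both strands of promoters taken from 250 bases before to 50 after the gene start (RefSeq, GRCm38.p6). Of the 31 list members with a promoter in that table, 19 (61.3%) held it, against 3.99% of 27025 promoters and 3.59% of the tested genes. A match describes the letters only. Windows of 3 of the members with the largest differences are shown, 5′ to 3′, with the searched element in capitals.
Isg15, chr4:156200871-156200900, on the gene's own minus strand: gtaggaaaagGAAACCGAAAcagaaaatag
Ifit1, chr19:34640794-34640823, on the strand opposite the gene: tcagcagtgaGAAACTGAAActgagactgg
Oas1a, chr5:120907520-120907549, on the gene's own minus strand: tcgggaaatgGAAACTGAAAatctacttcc
In Isg15 and Oas1a the matches overlap further matches a few bases away, and Ifit1 holds another beside the window shown.

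Isg15, which encodes a ubiquitin-like modifier, was 54.5, 78.2 and 38.0 CPM in Hbs1l-/- and 2.74 and 1.93 CPM in Pelo-/- libraries, against 2.64, 3.17 and 4.42 CPM in the control. Each Hbs1l-/- library was above every Pelo-/- and control library, and the latter 2 groups overlapped. The level was 24.1-fold higher in Hbs1l-/- than in Pelo-/- cells (log2 difference -4.59, SE 0.36, adjusted p = 0.000254). Ifit1, whose product binds viral RNA caps, was 22.6, 34.7 and 13.98 CPM against 1.59 and 1.10 CPM (-4.13, SE 0.44, adjusted p = 0.0006), and Oas1a, a synthetase of the RNase L activator, was 20.8, 33.7 and 16.0 CPM against 1.22 and 0.921 CPM (-4.44, SE 0.40, adjusted p = 0.000334). Usp18, the protease that removes ISG15, was 19.2, 26.2 and 12.6 CPM against 1.04 and 0.745 CPM (-4.42, SE 0.39, adjusted p = 0.000318). In all 4 genes Hbs1l-/- replicate 2 was the highest library and replicate 3 the lowest of its group, without overlap with Pelo-/- cells. Of the factors that carry the signal, Stat2 (-1.92) and Irf9 (-2.28) differed by less than the list's median of -2.85. The amplifying factor Irf7 differed by more than that median (-3.81). Bst2, the tetherin gene, was among the most abundant members, at 145, 161 and 93.7 TPM in Hbs1l-/- and 21.5 and 18.1 TPM in Pelo-/- libraries. The sole member not called was Mx1.

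Set beside the control, 37 of 41 interferon-stimulated genes tested were higher in Hbs1l-/- mRNA, with a median difference of 3.17, beside 12.7% of all genes, whereas in Pelo-/- mRNA 1 of 33 was higher and 6 were lower, with a median of -0.09, beside 15.5% and 16.6% of all genes. Genes low in most libraries of a comparison were not tested in it. In mRNA, some members low in Pelo-/- and control cells were thus tested only where the Hbs1l-/- libraries, in which they are high, took part. The 3 mRNA counts of this list therefore cover different members. The ribosome footprints of the same genotypes, from other libraries (3 mutant and 3 control libraries each), gave a different order. The controls of equal number in the 2 footprint batches differed by a chi-square of only 1.11 to 1.12 per gene, against 4.04 to 10.7 for other pairs, so the 6 control libraries amount to about 3 distinct ones that both mutants share. In footprints 42 of 42 members were higher in Pelo-/- cells, with a median of 5.59, and 36 of 37 were higher in Hbs1l-/- cells, with a median of 2.82, beside 22.9% and 17.4% of all genes higher. Isg15 footprints were 560, 449 and 686 CPM in Pelo-/- and 90.5, 142 and 60.9 CPM in Hbs1l-/- libraries, against 4.19 to 12.3 CPM in the control libraries. The Pelo-/- effect on Isg15 footprints exceeded that of Hbs1l-/- by 2.43 (SE 0.54, adjusted p = 0.0174 in the footprint fit of 12 libraries, and 2.56, SE 0.28, adjusted p = 5.05e-05 with equal-numbered controls counted once), while Isg15 mRNA of Pelo-/- cells differed from the control by -0.57 (adjusted p = 0.154).

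**Figure D3:**
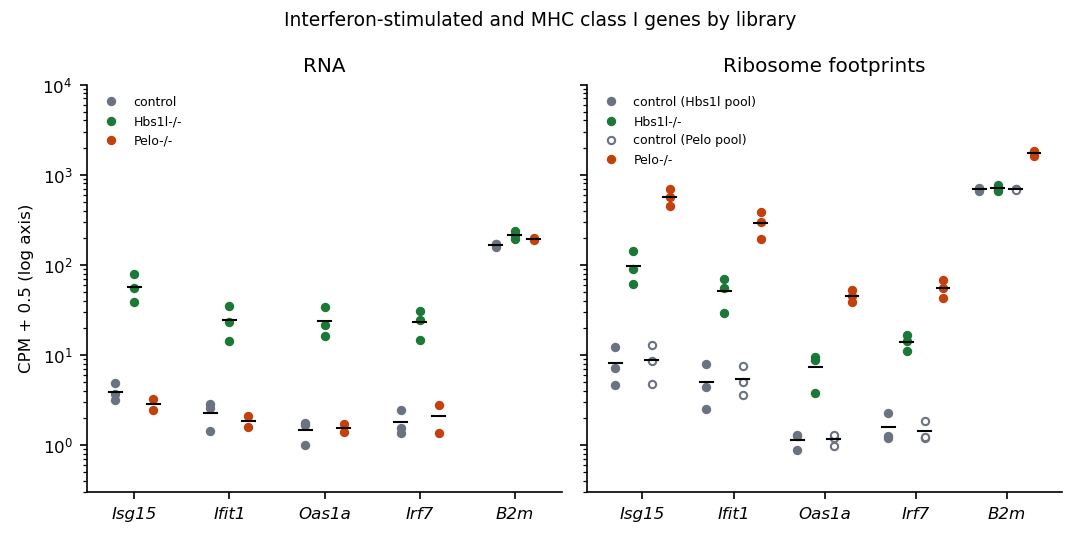
CPM plus 0.5 on a log axis for 5 genes in RNA (left) and ribosome footprints (right), with 1 point a library and a bar at each group's mean. In RNA Isg15, Ifit1, Oas1a and Irf7 are high in the 3 Hbs1l-/- libraries alone, whereas in footprints both mutants are above their controls and Pelo-/- is the higher of them, and B2m footprints stand apart in Pelo-/- only.

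Genes of antigen presentation by MHC class I, many of them also interferon-inducible, were lower in Pelo-/- cells as well. Of 14 tested, 13 were lower in Pelo-/- mRNA and none was higher (median -1.24), beside 16.3% and 18.9% of all genes, with 9 called without Hbs1l-/- replicate 2 or Pelo-/- replicate 1 and 8 without Pelo-/- replicate 2. H2-K1, a classical heavy chain, was 32.3, 31.0 and 18.4 CPM in Hbs1l-/- and 10.3 and 8.55 CPM in Pelo-/- libraries (-1.53, SE 0.25, adjusted p = 0.00312), and H2-D1 was 63.1, 67.0 and 41.6 CPM against 27.2 and 23.8 CPM (-1.16, SE 0.20, adjusted p = 0.00391). Both Pelo-/- libraries were below each Hbs1l-/- library and above each control library in both genes. The immunoproteasome subunits Psmb8 (-2.78) and Psmb10 (-0.95), the peptide transporter Tap1 (-1.03) and H2-T22 (-1.03) were also lower. B2m, the light chain, was 215, 239 and 193 CPM against 187 and 198 CPM, so that the groups overlapped (-0.16, SE 0.11, adjusted p = 0.276). In footprints 14 of 14 were higher than control in Pelo-/- cells (median 3.31) and 9 of 12 in Hbs1l-/- cells, beside 22.9% and 17.4% of all genes. H2-K1 footprints were 164, 146 and 167 CPM in Pelo-/- and 24.7, 29.8 and 14.2 CPM in Hbs1l-/- libraries, against 6.26 to 9.62 CPM in the controls.

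Chemokines, cytokines and NF-kB targets were divided, with 6 of 25 tested higher and 10 lower in Pelo-/- mRNA, beside 18.9% and 16.3% of all genes (5 lower without Pelo-/- replicate 2 and 6 without Hbs1l-/- replicate 2). The monocyte attractant Ccl2 was 37.9, 53.5 and 39.0 CPM in Hbs1l-/- and 11.6 and 12.9 CPM in Pelo-/- libraries, against 22.5, 27.7 and 34.5 CPM in the control. It was thus lowest in Pelo-/- and highest in Hbs1l-/- cells, with no overlap among the 3 groups (-1.82, SE 0.18, adjusted p = 0.000414). Cxcl10 differed by -2.73 and Ccl5 by -2.01, and the feedback inhibitor Tnfaip3 (1.94) and the prostaglandin synthase gene Ptgs2 (1.63) were higher. Ccl2 footprints went the other way, at 1909, 1298 and 1817 CPM in Pelo-/- and 223, 233 and 169 CPM in Hbs1l-/- libraries, against 96.0 to 155 CPM in the controls.

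Macrophage and haematopoietic markers were measured, since such cells also express many of these genes. None of the 21 tested, of 22 on the list, was higher and 9 were lower in Pelo-/- cells (median -0.57), beside 18.9% higher and 16.3% lower over all genes. The lower count was 2 without Hbs1l-/- replicate 2, 1 without Pelo-/- replicate 2 and 4 under the length term described below. Their summed level was 268, 308 and 226 TPM in Hbs1l-/-, 250 and 152 TPM in Pelo-/- and 108, 139 and 179 TPM in control libraries, and the complement genes C1qa (-0.92) and C1qb (-0.94), Coro1a (-0.97) and Ms4a7 (-1.39) were among the 9. The calls of C1qa and C1qb were lost without Hbs1l-/- replicate 2 (adjusted p 0.0687 and 0.0761) and under the length term (0.0571 and 0.0574), and those of C1qa, C1qb and Ms4a7 without Pelo-/- replicate 2 (0.0994, 0.0941 and 0.0783). Against the control, 16 of 21 markers were higher in Hbs1l-/- mRNA (median 0.95) and 2 of 21 in Pelo-/- mRNA (median 0.26), beside 12.7% and 15.5% of all genes. In footprints, where the interferon, MHC class I and chemokine genes were also higher, 20 of 20 markers were higher in Pelo-/- (median 1.75) and 16 of 20 in Hbs1l-/- cells (median 0.81), beside 22.9% and 17.4% of all genes. The mutants' summed mRNA levels overlapped, the pan-leukocyte gene Ptprc and the macrophage receptor gene Csf1r were not called between the mutants, and the part of these markers in the interferon, MHC class I and chemokine results, in mRNA or footprints, was not tested.

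Genes of DNA replication and mitosis were mostly lower in Pelo-/- mRNA. Of 44 replication genes 39 were lower and none higher (median -0.64), and of 45 mitotic genes 43 were lower and none higher (median -0.73), beside 16.3% lower over all genes. Without Pelo-/- replicate 1 or 2 the replication count was 24 and 23, and the mitotic count was 29 in both fits. Mcm5, a subunit of the replicative helicase, was 230, 214 and 228 CPM in Hbs1l-/- and 109 and 105 CPM in Pelo-/- libraries, against 109, 111 and 130 CPM in the control. The Pelo-/- and control libraries overlapped, and the Hbs1l-/- libraries stood 2.09-fold above Pelo-/- (log2 difference -1.06, SE 0.08, adjusted p = 0.000259). The nucleotide enzymes Tk1 (-0.999) and Dut (-0.85) and the polymerase subunit Pold2 (-0.94) had differences of like size.

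Among mitotic genes, cyclin B1 (Ccnb1) was 84.4, 98.0 and 92.0 CPM in Hbs1l-/- and 48.4 and 44.7 CPM in Pelo-/- libraries, against 59.2, 62.9 and 61.0 CPM in the control. The order was Hbs1l-/- over control over Pelo-/- without overlap (-0.97, SE 0.10, adjusted p = 0.000472). Cyclin A2 (Ccna2) differed by -0.85, the entry regulator Cdca3 by -0.995 and the kinetochore subunit Spc24 by -1.31. Mki67, the proliferation antigen, was 45.9, 64.6 and 49.3 CPM against 26.3 and 19.7 CPM (-1.21, SE 0.18, adjusted p = 0.00226), with a control that ranged from 30.3 to 58.4 CPM.

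Many mitotic promoters hold the cell cycle genes homology region, searched as TTTGAA on both strands. It was in 29 of 38 mitotic promoters (76.3%), against 20.2% of all promoters and 14.5% of those of the tested genes. For replication genes the share was 5 of 35 (14.3%). Windows of Cdca3 and Mki67 are shown 5′ to 3′ with the searched letters in capitals.
Cdca3, chr6:124830194-124830223, on the gene's own plus strand: cgtggagggaagTTTGAAactccgggcttt
Mki67, chr7:135716478-135716507, on the gene's own minus strand: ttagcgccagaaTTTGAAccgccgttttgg

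Against the control, 27 replication genes were higher in Hbs1l-/- mRNA and none lower (median 0.54), whereas in Pelo-/- mRNA 2 were higher and 14 lower (median -0.13). For mitosis the counts were 28 higher and none lower in Hbs1l-/- (median 0.58) and 1 higher and 14 lower in Pelo-/- mRNA (median -0.17). Over all genes 12.7% were higher in Hbs1l-/- mRNA, and 15.5% were higher and 16.6% lower in Pelo-/- mRNA. In footprints both mutants were above controls that are close to the same libraries, so their counts are not independent. Of the replication genes 36 of 44 were higher in each, with medians of 0.60 in Pelo-/- and 0.56 in Hbs1l-/- cells. Of the mitotic genes 42 of 45 were higher in Pelo-/- and 43 in Hbs1l-/- footprints, beside 22.9% and 17.4% of all genes. A single replication gene was lower in Pelo-/- and a single mitotic gene in Hbs1l-/- footprints. Mcm5 footprints were 228, 221 and 260 CPM in Pelo-/- and 219, 240 and 194 CPM in Hbs1l-/- libraries, against 112 to 128 CPM in the controls, and the effects of the mutants on Mcm5 footprints differed by 0.09 (SE 0.12, adjusted p = 0.751).

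Muscle genes were higher in Pelo-/- than in Hbs1l-/- mRNA and near the control. Of 15 skeletal muscle genes tested 13 were higher and none lower (median 1.76), and of 13 smooth muscle contractile genes 12 were higher and none lower (median 0.60), beside 18.9% higher over all genes. Fewer skeletal muscle genes were called without Pelo-/- replicate 1, and the median of that list was 1.64 to 1.91 without any 1 library. Acta1, skeletal alpha-actin, was 17.0, 13.7 and 27.9 CPM in Hbs1l-/- and 129 and 124 CPM in Pelo-/- libraries, against 133, 114 and 101 CPM in the control. It was 6.50-fold higher in Pelo-/- cells (2.70, SE 0.26, adjusted p = 0.000395), and its Pelo-/- and control values overlapped. The embryonic myosin gene Myh3 (2.98), the myosin light chain genes Myl1 (2.42) and Mylpf (2.40) were at a few CPM only. In the smooth muscle list, Myh11, the smooth muscle myosin heavy chain, was 36.4, 48.3 and 41.8 CPM against 114 and 96.3 CPM (1.32, SE 0.13, adjusted p = 0.000441), and Synpo2 (1.46), the coactivator gene Myocd (1.27) and Tpm1 (0.72) were higher as well. Acta2, smooth muscle actin, was 8043, 7011 and 8371 CPM against 10361 and 10530 CPM (0.42, SE 0.10, adjusted p = 0.0152, and 0.0857 and 0.11 without Pelo-/- replicate 1 or 2).

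In footprints, again, both mutants were below their controls. Acta1 footprints were 36.3, 54.1 and 25.2 CPM in Pelo-/- and 21.9, 32.9 and 39.7 CPM in Hbs1l-/- libraries, against 125 to 185 CPM in the controls, and the mutants overlapped. Of the smooth muscle genes 10 were lower in Pelo-/- and 12 in Hbs1l-/- footprints and none was higher, beside 21.2% and 16.7% of all genes lower. In mRNA 12 were lower in Hbs1l-/- cells (median -0.76), beside 10.4% of all genes, and 2 were lower and 1 was higher in Pelo-/- cells (median -0.06), beside 16.6% and 15.5%. Other cell type lists had few or divided calls. Of 9 cardiomyocyte genes 2 were higher, of 18 cartilage and bone genes 4, of 13 endothelial genes 6 (and 4 lower), of 14 neuronal and glial genes 4 (and 2 lower), of 7 epithelial genes 3 (and 1 lower), and of 5 adipocyte genes none (and 3 lower), beside 18.9% higher and 16.3% lower over all genes. These counts rested on single libraries, since without 1 of the 5 the cartilage and bone count fell to 2 (without any but Hbs1l-/- replicate 1), 3 cartilage and bone genes were lower without Hbs1l-/- replicate 3, 1 or 2 endothelial genes were lower in every such fit, no neuronal or glial gene was lower without either Pelo-/- library, and no adipocyte gene without Hbs1l-/- replicate 2 or either Pelo-/- library.

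Cytosolic ribosomal protein mRNAs were lower in Pelo-/- cells. By mean log2 CPM the control lay nearer to Hbs1l-/- for 31 of 34 large and 25 of 27 small subunit genes called. Of 49 large subunit genes 34 were lower, and of 30 small subunit genes 27, with none higher and a median of -0.47 in each list, beside 16.3% lower over all genes. They made up 15.3, 14.9 and 15.1% of all TPM in Hbs1l-/- and 11.3 and 10.9% in Pelo-/- libraries, against 12.7, 12.96 and 15.5% in the control. By this share control replicates 1 and 2 lay nearer to the Pelo-/- libraries and replicate 3 lay with Hbs1l-/-. Rps14 was 1568, 1576 and 2018 CPM in Hbs1l-/- and 839 and 760 CPM in Pelo-/- libraries (-1.10, SE 0.14, adjusted p = 0.001), the latter below the control's 1350, 1056 and 1351 CPM. Rps4x (-0.71), Rps2 (-0.65), Rps21 (-0.65), Rpl18 (-0.75), Rpl36 (-0.73), Rpl15 (-0.68) and Rpl21 (-0.85) were lower without overlap. Many of these genes have near-identical processed copies in the genome, so the division of reads among them is uncertain. Without Pelo-/- replicate 1 the counts were 15 and 11, and without replicate 2 they were 23 and 17.

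Ribosomal protein mRNAs are short, and transcript length moved with the contrast. Among genes under 1 kb, 27.7% were lower and 5.93% higher in Pelo-/- cells (median -0.26), whereas among genes of 5 to 8 kb 5.71% were lower and 43.1% higher (median 0.34). The deviation of single libraries from the mean of the 8 RNA libraries went up with length in both Pelo-/- libraries, from -0.23 and -0.16 under 1 kb to 0.23 and 0.21 at 5 to 8 kb. In Hbs1l-/- libraries it fell from 3 kb on, and went from -0.0077, 0.0028 and 0.082 under 1 kb to -0.15, -0.04 and -0.20 at 5 to 8 kb. The control libraries differed among themselves, at -0.16, 0.16 and -0.02 for 5 to 8 kb. With a length trend taken out of each library, 18 of 49 large and 13 of 30 small subunit genes were lower, with medians of -0.22 in each. With the same term the counts were 36 of 44 replication, 43 of 45 mitotic, 41 of 42 interferon-stimulated and 34 of 51 lysosomal genes called, as against 39, 43, 41 and 36 without it.

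**Figure D4:**
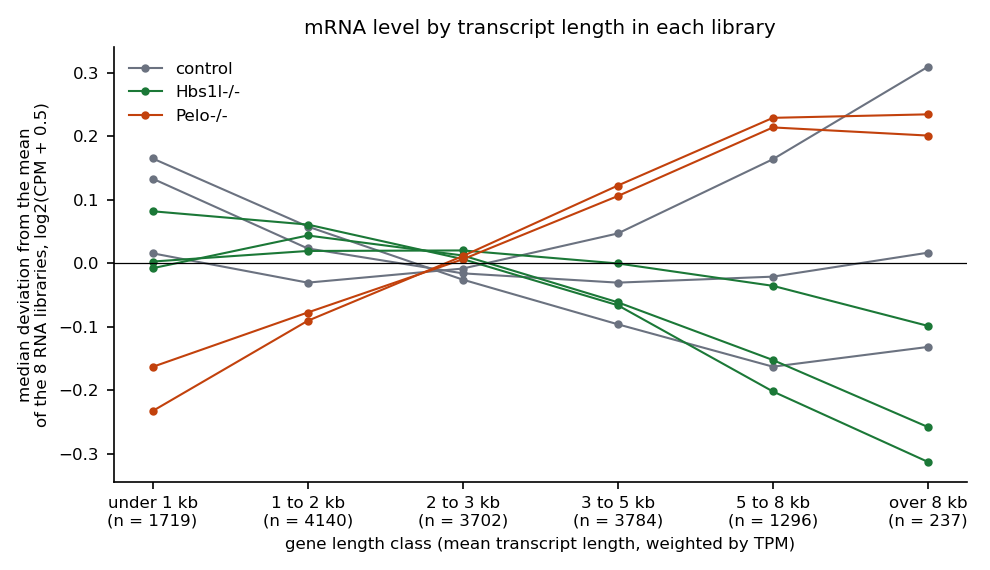
Median deviation of each RNA library from the mean of the 8 libraries shown (log2 of CPM plus 0.5), by class of transcript length with the number of genes in brackets, 1 line a library. Both Pelo-/- lines climb from -0.23 and -0.16 under 1 kb to 0.23 and 0.21 at 5 to 8 kb, the Hbs1l-/- lines descend from 3 kb on, and the control lines part in both directions.

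In footprints the ribosomal protein genes lay the other way. Of the large subunit genes 36 of 48, and of the small subunit genes 17 of 29, were higher than control in Pelo-/- cells with none lower, beside 22.9% of all genes, and in Hbs1l-/- cells 9 of 46 and 7 of 29 were higher and 1 was lower, beside 17.4% of all genes higher. Rps2 footprints were 118, 113 and 99.1 CPM in Pelo-/- and 83.3, 74.4 and 71.2 CPM in Hbs1l-/- libraries, against 81.7 to 85.9 CPM in the controls. For Rps2 the Pelo-/- effect on footprints was above that of Hbs1l-/- by 0.55 (SE 0.11, adjusted p = 0.00795, and 0.53, adjusted p = 0.000616 with equal-numbered controls counted once), where its mRNA was lower by 0.65.

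Other parts of the translation machinery were lower in smaller shares. Of 61 initiation and elongation factor genes 24 were lower and 5 higher (median -0.34), beside 16.3% and 18.9% of all genes, with 13 and 6 lower and 1 higher without Pelo-/- replicate 1 or 2, and 3 higher without Hbs1l-/- replicate 2 or under the length term. Eif4a3, a helicase of the exon junction complex placed on this list and among the decay factors, was 201.3, 187.3 and 201.3 CPM in Hbs1l-/- and 142 and 140 CPM in Pelo-/- libraries (-0.47, SE 0.08, adjusted p = 0.00394, and 0.0507 and 0.0666 without Pelo-/- replicate 1 or 2). Of 78 mitochondrial ribosomal protein genes 38 were lower and 1 higher (median -0.28), against the same shares of all genes, with 16 lower under the length term, 16 without Pelo-/- replicate 1 and 13 without replicate 2. Of 27 genes of the integrated stress response 12 were lower and 4 higher (median -0.32), again beside 16.3% and 18.9%, and 2 higher without Pelo-/- replicate 2. Atf4, its central factor, overlapped between the mutants at 225 to 252 and 224 to 236 CPM (-0.04, SE 0.09, adjusted p = 0.74), the serine synthesis gene Psat1 was 686, 696 and 693 CPM against 385 and 353 CPM (-0.90, SE 0.09, adjusted p = 0.000408), Shmt2 was lower (-0.81), and the eIF2 alpha phosphatase subunit gene Ppp1r15a (0.85) and the arginine transporter gene Slc7a1 (0.80, and 0.37 with the replicate number as a block and the length term, adjusted p = 0.0572) were higher.

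The mutants' own pathway was examined gene by gene. Besides Pelo and Hbs1l, the rescue and recycling list held 5 genes, 2 of which were lower in Pelo-/- cells and none higher, beside 16.3% and 18.9% of all genes. Abce1, the splitting ATPase, was 51.8, 111 and 112 CPM in Hbs1l-/- and 47.9 and 32.5 CPM in Pelo-/- libraries, against 122, 146 and 133 CPM in the control. Hbs1l-/- replicate 1 lay close to the Pelo-/- pair, all mutant libraries lay below the control, and the difference of -1.19 (SE 0.33, adjusted p = 0.0242) had an adjusted p of 0.108, 0.0563 and 0.14 without Hbs1l-/- replicate 2, Hbs1l-/- replicate 3 or Pelo-/- replicate 2. Gtpbp1, a GTPase related to HBS1L, differed by -0.30 (SE 0.09, adjusted p = 0.0354) and its paralogue Gtpbp2 by -0.12 (SE 0.11, adjusted p = 0.434), and the call of Gtpbp1 was lost without Hbs1l-/- replicate 3 or either Pelo-/- library (adjusted p 0.0711 to 0.287) and with limma on log2(TPM + 1) (-0.16, adjusted p = 0.313). The release factor genes Etf1 (-0.33, SE 0.19, adjusted p = 0.206, and 0.00113 without Hbs1l-/- replicate 1) and Gspt1 (-0.08, SE 0.13, adjusted p = 0.649) did not pass the threshold.

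Of 17 genes of ribosome-associated quality control and collision sensing, 1 was higher and 4 were lower, beside 18.9% and 16.3% of all genes, and 2 were higher without Hbs1l-/- replicate 1. The collision kinase gene Map3k20 was 46.2, 57.6 and 59.0 CPM in Hbs1l-/- and 88.5 and 88.6 CPM in Pelo-/- libraries, against 81.5 to 105 CPM in the control (0.71, SE 0.12, adjusted p = 0.00316). Its Pelo-/- values lay within the range of the control, and its Hbs1l-/- values below. Rack1 (-0.63), the 40S scaffold, was lower, as were Nemf (-0.82) and Edf1 (-0.38), whose calls were lost without either Pelo-/- library (adjusted p 0.0536 to 0.11; -0.14 and 0.261 for Edf1 under the length term), and the helicase gene Ascc3 (-1.23). Without Pelo-/- replicate 2, 1 of the 17 was lower. Of 17 genes of the exosome and Ski complex 9 were lower and none higher (median -0.42), beside 16.3% of all genes lower, and 5 without either Pelo-/- library. The exosome genes Exosc8 (34.9, 38.1 and 36.5 CPM against 18.5 and 20.3 CPM, difference -0.91, SE 0.11, adjusted p = 0.000866) and Exosc7 (-0.79) and the helicase gene Mtrex (-1.28) had the lowest p, while the Ski subunit genes Skiv2l (-0.25, adjusted p = 0.105) and Ttc37 (-0.42, adjusted p = 0.156) did not pass. Both Ski genes passed under the length term (-0.39 and -0.78, adjusted p 0.0357 and 0.0251) and without a filter (-0.322 and -0.495, adjusted p 0.0396 and 0.0053). Ttc37 also passed without Hbs1l-/- replicate 1 (-0.568, adjusted p = 0.0238). In mRNA 8 of these genes were higher than control in Hbs1l-/- and 5 lower in Pelo-/- cells, and in footprints 12 of 17 were higher in each mutant. Over all genes 12.7% were higher in Hbs1l-/- and 16.6% lower in Pelo-/- mRNA, and 22.9% were higher in Pelo-/- and 17.4% in Hbs1l-/- footprints.

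Of 15 nonsense-mediated decay factors 1 was higher and 5 were lower (median -0.18), beside 18.9% and 16.3% over all genes, with 3 and 2 lower without Pelo-/- replicate 1 or 2 and 3 higher without Hbs1l-/- replicate 1. Upf3b was 5.48, 6.47 and 6.30 CPM in Hbs1l-/- and 3.15 and 2.54 CPM in Pelo-/- libraries (-1.09, SE 0.18, adjusted p = 0.00321). Upf2 was 8.98, 14.2 and 12.5 CPM against 8.41 and 5.35 CPM (-0.79, SE 0.25, adjusted p = 0.0393), a call lost without Hbs1l-/- replicate 2 or 3 or Pelo-/- replicate 2 (adjusted p 0.0813 to 0.253) and with limma on log2(TPM + 1) (-0.52, adjusted p = 0.0992). Among transcripts, 2983 of 35392 (8.43%) were called. Of 2265 transcripts annotated as targets of nonsense-mediated decay 25 were higher and 64 lower, and of 4203 with a retained intron 34 were higher and 69 lower, beside 4.15% and 4.27% over all transcripts. The transcript counts were 0 without either Pelo-/- library or Hbs1l-/- replicate 2 and 550 without Hbs1l-/- replicate 3, at 8195, 7271, 7309 and 7544 transcripts with an unadjusted p under 0.05 in edgeR, and DESeq2 called 6268 with all libraries.

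Oxidative phosphorylation was divided by genome. Of 81 nuclear subunit genes 44 were lower in Pelo-/- cells and none higher (median -0.31), beside 16.3% of all genes lower, with 41 of the 44 control means nearer to Hbs1l-/-. Under the length term 13 were lower and 2 higher, and without either Pelo-/- library 6 were lower. Ndufs8, a complex I subunit gene, was 104, 101 and 116 CPM in Hbs1l-/- and 62.5 and 62.3 CPM in Pelo-/- libraries (-0.77, SE 0.09, adjusted p = 0.000945), and Ndufa5 (-1.20), Uqcrb (-1.12) and Ndufv1 (-0.57, adjusted p 0.0609 without Pelo-/- replicate 2) were lower too. Of the 13 genes encoded in the mitochondrial genome 7 were higher and none lower (median 0.98), beside 18.9% of all genes higher. Against the control, 8 of 13 were lower and none higher in Hbs1l-/- mRNA (median -0.64), beside 10.4% of all genes lower. In Pelo-/- mRNA 4 were higher and 3 lower (median 0.33), beside 15.5% and 16.6% of all genes. Their summed level was 11120, 16150 and 14250 TPM in Hbs1l-/-, 19230 and 20850 TPM in Pelo-/- and 17380, 27940 and 26660 TPM in control libraries. Of the 13, mt-Co1 was 1347, 1435 and 1169 CPM in Hbs1l-/- and 2901 and 3266 CPM in Pelo-/- libraries, against 1433, 2165 and 1854 CPM in the control. It was highest in Pelo-/- cells, and the Hbs1l-/- and control libraries overlapped (1.23, SE 0.11, adjusted p = 0.000341). The complex I genes mt-Nd4 (1.19), mt-Nd4l (1.25) and mt-Nd5 (1.27) were higher, and mt-Atp6, mt-Atp8, mt-Co2, mt-Co3, mt-Cytb and mt-Nd1 were not called. Footprints had the same order. The Pelo-/- effect exceeded the Hbs1l-/- effect for 9 of 13 genes and was below it for none (median 1.22), beside 3.45% and 2.10% of all genes, and it exceeded it for 13 of 13 with equal-numbered controls counted once, beside 11.1% of all genes. Footprints of mt-Co1 were 3129, 2432 and 1963 CPM in Pelo-/- and 1215, 897 and 1102 CPM in Hbs1l-/- libraries, against 1291 to 1952 CPM in the controls.

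Lysosomal and autophagy genes were mostly higher in Pelo-/- mRNA. Of 51 tested 36 were higher and 3 lower (median 0.52), beside 18.9% higher and 16.3% lower over all genes, with 17 and 20 higher without Pelo-/- replicate 1 or 2, where 1 and 0 were lower. Npc1, the cholesterol exporter of the lysosome, was 26.5, 23.9 and 19.4 CPM in Hbs1l-/- and 51.6 and 58.3 CPM in Pelo-/- libraries, against 22.8, 30.7 and 24.2 CPM in the control. Pelo-/- libraries thus lay apart from both other groups (1.25, SE 0.14, adjusted p = 0.000726). The peptidase gene Tpp1 was 60.7, 54.9 and 49.6 CPM against 117 and 120 CPM (1.11, SE 0.10, adjusted p = 0.000334), and the membrane protein gene Lamp1 was 549, 496 and 504 CPM against 845 and 860 CPM (0.73, SE 0.09, adjusted p = 0.000912). The members that were lower were the collagenolytic cathepsin gene Ctsk, the regulator Tfeb and Map1lc3a. The CLEAR element, a lysosomal promoter motif searched as its palindrome TCACGTGA, was in 6 of 40 lysosomal promoters (15%), against 1.13% of all promoters and 2.12% of those of the tested genes. The windows of the cathepsin genes Ctsd (0.54) and Ctsa (0.57), both higher in Pelo-/- cells, show it in capitals, and Ctsa holds another match close by.
Ctsd, chr7:142387909-142387938, on the gene's own minus strand: ctcgcccgcgtcTCACGTGAcccgttgagg
Ctsa, chr2:164833748-164833777, on the gene's own plus strand: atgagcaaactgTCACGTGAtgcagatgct

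Footprints of the lysosomal genes were lower than control in both mutants, with 31 of 51 lower and 5 higher in Pelo-/- (median -0.36) and 34 lower and 3 higher in Hbs1l-/- cells, beside 21.2% and 16.7% of all genes lower and 22.9% and 17.4% higher. In mRNA 29 were higher and 3 lower in Pelo-/- (median 0.32) and 2 higher and 11 lower in Hbs1l-/- cells (median -0.12), beside 15.5% higher and 16.6% lower over all genes in Pelo-/- and 12.7% and 10.4% in Hbs1l-/- cells. Lamp1 footprints were 801, 826 and 753 CPM in Pelo-/- and 865, 883 and 1013 CPM in Hbs1l-/- libraries, against 1160 to 1243 CPM in the controls. The 3 groups of Lamp1 values did not overlap, and the mutants' effects differed by -0.22 (SE 0.09, adjusted p = 0.219, and 0.0531 with equal-numbered controls counted once). Of 26 genes of the mTORC1 pathway, which acts at the lysosome, 6 were higher and 2 lower (median -0.05), near the 18.9% higher and under the 16.3% lower over all genes, with 3 and 2 higher and none lower without Pelo-/- replicate 1 or 2, and 4 lower without Hbs1l-/- replicate 1. Mtor itself was 44.1, 39.9 and 39.5 CPM against 63.3 and 64.7 CPM (0.64, SE 0.09, adjusted p = 0.00185). The Mtor call was lost under the length term (0.26, adjusted p = 0.0815), under the replicate block with the length term (0.28, adjusted p = 0.206) and with limma on log2(TPM + 1) (0.15, adjusted p = 0.522). The amino acid sensing GTPase genes Rragd (1.27) and Rragc (0.48, adjusted p 0.0583 without Pelo-/- replicate 2) were higher, and the translation repressor gene Eif4ebp1 was lower (-0.41), a call lost without either Pelo-/- library (adjusted p 0.0808 to 0.0817) and under the length term (-0.23, adjusted p = 0.0523).

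Of 25 cholesterol synthesis genes 14 were lower and 3 higher (median -0.44), beside 16.3% and 18.9% of all genes, with 14 of the 17 control means nearer to Hbs1l-/-. Without Pelo-/- replicate 1 or 2, 9 and 8 were lower, and 1 was higher without replicate 2. Fdps, which makes farnesyl diphosphate, was 250, 234 and 273 CPM in Hbs1l-/- and 124 and 111 CPM in Pelo-/- libraries, against 194, 214 and 247 CPM in the control (-1.10, SE 0.10, adjusted p = 0.000391). Both Pelo-/- libraries lay below all others. Fdft1 (-0.79), Mvk (-0.90) and Acat2 (-0.71) were also lower.

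The 12 largest increases at 5 CPM or more on average came from several kinds of gene. AY036118, an rRNA-like gene, led them with 9.37 and 1717 CPM in Pelo-/- against 0.0444 to 0.214 CPM in Hbs1l-/- libraries, but control replicate 3 held 10106 CPM and control replicate 1 none, so that its level varied widely within groups. Cldn4, a tight junction gene, was 0.639, 0.767 and 2.27 CPM in Hbs1l-/- and 26.7 and 23.5 CPM in Pelo-/- libraries, against 2.84 to 6.91 CPM in the control (4.35, SE 0.42, adjusted p = 0.000402). Fn1, fibronectin, was 1819, 1315 and 1085 CPM against 5999.7 and 6490.5 CPM, with the control at 1703, 3146 and 2638 CPM (2.16, SE 0.19, adjusted p = 0.000333). The large cadherin gene Fat1 was 192, 139 and 103 CPM against 553 and 702 CPM (2.12, SE 0.23, adjusted p = 0.000613). In Cldn4, Fn1 and Fat1 the Pelo-/- libraries lay above all others. In Parm1 (2.26), Sorbs2 (2.17) and Tph1 (2.51), the peripheral tryptophan hydroxylase gene, the Pelo-/- libraries lay near the control and the Hbs1l-/- libraries below both. Dgkk (2.92), Lce1h (2.37), Hbs1l and Acta1 were also among the 12. In footprints Fn1 was lower in Pelo-/- cells than in the control, at 10982, 11434 and 9604 CPM against 15477 to 17948 CPM in the controls.

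Collagen genes were divided by chain. Of 38 tested 13 were higher and 2 lower (6 without Hbs1l-/- replicate 3), beside 18.9% and 16.3% of all genes, with a median of 0.23 that turned to -0.11 under the length term and to -0.13 without Hbs1l-/- replicate 3. Col4a1, a basement membrane chain, was 620, 528 and 447 CPM in Hbs1l-/- and 1854 and 2127 CPM in Pelo-/- libraries, against 762, 1145 and 1033 CPM in the control (1.91, SE 0.14, adjusted p = 0.000234). Col4a2 (1.61), Col4a5 (1.68) and Col7a1 (1.64), the anchoring fibril chain, were higher, and the 2 lower genes were Col6a1 (-1.07) and Col6a2 (-1.36). Of 23 immediate early genes 11 were higher and 3 lower (median 0.28), beside 18.9% and 16.3%, with 5 and 2 higher without Pelo-/- replicate 1 or 2. The phosphatase gene Dusp5 was 59.8, 55.1 and 69.8 CPM against 151 and 152 CPM, with the control at 63.4 to 67.2 CPM (1.30, SE 0.11, adjusted p = 0.0003), and Fosb differed by 1.32, whereas Egr1 (-1.02), Fos (-0.92) and Ier2 (-0.71) were lower.

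Of 37 Hox genes, which record position along the body axis, 14 were higher and 2 lower (median 0.34), beside 18.9% and 16.3% of all genes, and 9 and 5 were higher and 1 and 0 lower without Pelo-/- replicate 1 or 2. Hoxb9 was 43.1, 36.3 and 42.4 CPM in Hbs1l-/- and 76.5 and 80.2 CPM in Pelo-/- libraries, against 47.6 to 50.9 CPM in the control (0.95, SE 0.10, adjusted p = 0.000601), and Hoxb2 (0.78), Hoxb3 (1.08) and Hoxb8 (0.93) were higher. The 2 lower genes were Hoxa13 (-1.14) and Hoxd13 (-0.75), which act at the far end of limb and trunk. In the insulin-like growth factor system 6 of 14 genes were higher and 4 lower (median -0.05, beside the same shares of all genes), with 3 higher without either Pelo-/- library, 2 lower without Pelo-/- replicate 2, and medians from -0.20 without Hbs1l-/- replicate 3 to 0.09 without Hbs1l-/- replicate 1. H19, the imprinted RNA beside Igf2, was 9516, 7664 and 6394 CPM in Hbs1l-/- and 2583 and 2428 CPM in Pelo-/- libraries, against 2089.7, 2808 and 3412 CPM in the control (-1.64, SE 0.16, adjusted p = 0.000451). Its Pelo-/- values lay inside the range of the control. Igf2r was 183, 151 and 124 CPM against 411 and 439 CPM (1.48, SE 0.15, adjusted p = 0.000451), and Igf1r (1.11) and Igfbp7 (0.91) were higher.

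Genes listed as differing between C57BL/6J and C57BL/6N mice were read because the alleles differ in origin. Wdfy1 was 67.9, 44.6 and 46.5 CPM in Hbs1l-/- and 13.5 and 13.4 CPM in Pelo-/- libraries, against 46.6 to 49.6 CPM in the control (-1.97, SE 0.20, adjusted p = 0.000463). Wdfy1 footprints had the same direction, at 4.79, 3.77 and 3.92 CPM in Pelo-/- and 23.1 to 45.7 CPM in Hbs1l-/- libraries, against 25.1 to 29.1 CPM in the controls. Cyfip2 was 5.31 to 5.57 CPM against 12.4 and 11.5 CPM, with the control at 10.7 to 12.5 CPM (1.14, SE 0.13, adjusted p = 0.000745). Cyfip2 footprints did not have this order, at 6.89, 4.57 and 5.27 CPM in Pelo-/- and 5.87, 7.50 and 5.94 CPM in Hbs1l-/- libraries, against 11.7 to 15.5 CPM in the controls. Cyfip2 of Pelo-/- cells thus differed from the control by 0.08 in mRNA (adjusted p = 0.655) and by -1.24 in footprints (adjusted p = 0.000326). The gene Nnt, split over 2 identifiers, differed by 0.05 (adjusted p = 0.855) and 0.17 (adjusted p = 0.559), and Entpd4 by 0.44 (adjusted p = 0.154, and 0.043 without Hbs1l-/- replicate 3). The control lay with Hbs1l-/- for Wdfy1 and with Pelo-/- for Cyfip2 mRNA. No genotype was read, and the part of strain background in these and the other differences was not tested.

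The relation of mRNA to footprints was described for each mutant. Of 3146 genes called between Hbs1l-/- and control mRNA and measured in footprints, 93.0% had the same sign in Hbs1l-/- footprints. Of 4394 such genes in Pelo-/- cells 54.1% did. Over all genes measured in both kinds of library the shares were 70.6% of 11904 in Hbs1l-/- and 53.9% of 12140 in Pelo-/- cells. Among genes higher in Pelo-/- mRNA 514 were higher and 495 lower in footprints, and among those lower in mRNA 394 were higher and 586 lower. The corresponding counts in Hbs1l-/- cells were 996 and 7, and 6 and 917. For the direct contrast, 2529 of the genes higher in Pelo-/- than in Hbs1l-/- mRNA were measured in footprints, and the footprint effects of the mutants differed in the same direction for 40.4%, with 44 higher and 107 lower past the threshold. Of 2219 lower genes 43.4% had the same direction, with 160 higher and 26 lower, beside 46.3% over all 12246 genes. Over all 12526 genes, 695 (5.55%) differed between the mutants' effects on footprints, 432 (3.45%) higher and 263 (2.10%) lower in Pelo-/- cells. The count was 2387 with equal-numbered controls averaged and counted once, a fit that compares the mutants directly across batches and was added after the controls were compared, and it was 384 without control replicate 1 of either footprint batch and 416 without Hbs1l-/- replicate 3. These shares are descriptions over genes, which are not independent replicates.

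**Figure D5:**
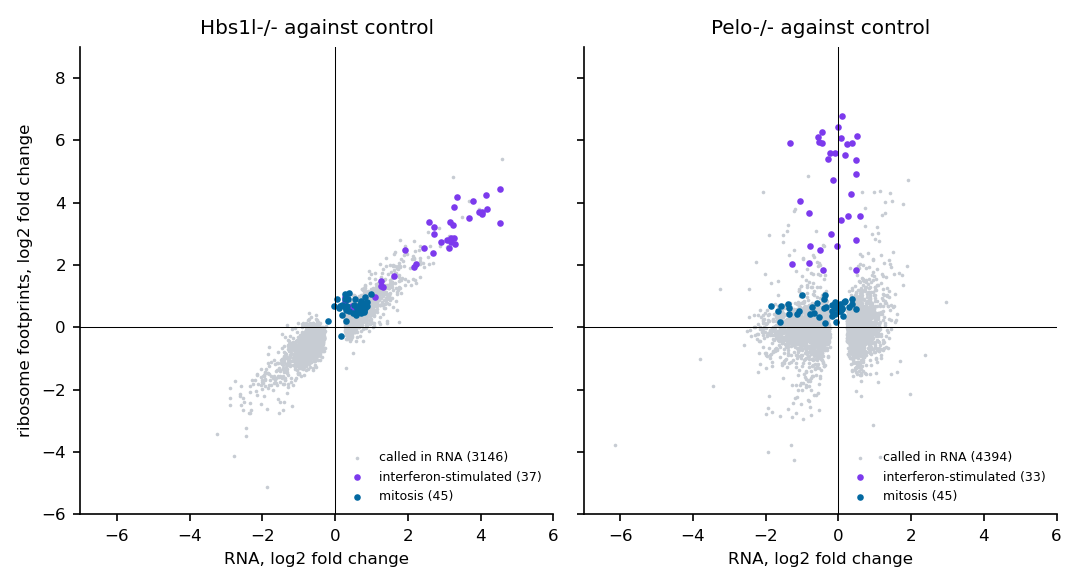
Log2 difference from the control in RNA (horizontal) against that in ribosome footprints (vertical) for genes called in RNA (grey), with interferon-stimulated and mitotic genes in colour whether called or not, for Hbs1l-/- (left) and Pelo-/- (right). In Hbs1l-/- 93.0% of the 3146 grey points have the same sign on both axes and in Pelo-/- 54.1% of 4394, and in Pelo-/- the interferon-stimulated genes lie high in footprints and around 0 in RNA.

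Pelo itself was low in Pelo-/- libraries of both kinds. Its mRNA was 0.555 and 0.0877 CPM, and its footprints were 2.81, 2.98 and 2.00 CPM against 28.1 to 38.4 CPM in all other footprint libraries used. Wdfy1 was also low in both kinds of Pelo-/- library. Cyfip2 was at the control level in Pelo-/- mRNA and below it in the footprints of both mutants. The footprint libraries of the mutants belong to separate batches by their labels, batch 3 for Hbs1l and batch 4 for Pelo, each with controls, whereas the RNA libraries share a batch. The labels do not say whether RNA and footprints came from the same embryos, and the part of culture, harvest or embryo in the difference between Pelo-/- mRNA and footprints was not tested.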

How the data were processed

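RNA libraries were made from poly(A) RNA with a stranded kit. The authors obtained the deposited estimated counts and TPM with kallisto 0.42.4 on Gencode M24 transcripts (mm10), and the deposited footprint counts per gene with featureCounts over coding sequences after HISAT2 2.1.0 alignment and removal of rRNA reads with Bowtie2 2.2.3. Here estimated counts were summed per gene, rounded and tested with edgeR 4.0.16 (filterByExpr, TMM, quasi-likelihood test, Benjamini-Hochberg adjustment over all genes tested, threshold 0.05) in R 4.3.3, on the 2 Pelo-/- and 3 Hbs1l-/- libraries. Each mutant was also compared with the 3 control RNA libraries, and the mutants' effects on footprints by the interaction of genotype and batch in 12 libraries, without histone genes as in the study. CPM values are edgeR's. A list's median is the median log2 difference of its tested members. Genes named were the targeted genes and their neighbours, the 12 largest increases and decreases called without overlap at 5 CPM or more on average, up to 4 members of lowest p and the defining members of each list, and sex-linked and substrain genes. A few further members (B2m, Stat2, Irf9, Acta2, Skiv2l, Ttc37 and list exceptions) were named after their values were seen, and some genes are not reported here. Members and lists were chosen with earlier results of these data known. Same-numbered RNA samples were not paired. The footprint controls of equal number in the 2 batches were close to the same libraries and were also averaged and counted once. Replicates were separate embryos by the study's methods. Promoter sequences came from RefSeq (GRCm38.p6), gene positions from Gencode M21. The analysis was tested on simulated counts. Alternatives were DESeq2 1.42.0, limma 3.58.1 on log2(TPM + 1), other scalings, filters, fits, a length term, a replicate block and leaving out each library.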

Additional observations from a re-analysis of the deposited data

How the results depend on the processing

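The count of 5235 genes was 5265 with DESeq2, 5243 with DESeq2's size factors in edgeR, 5290 on library totals, 6192 of 32920 without a filter, 4340 at 5 CPM or more on average, 5370 with 8 and 5120 with 11 libraries in the fit, 4992 after thinning to the smallest library, 4533 with the length term and 4135 with limma. On library totals 2567 were higher and 2723 lower, and without a filter 2574 and 3618. All calls shared with the fit reported had the same direction, except 2 under the length term. It was 5259 without AY036118, an alternative chosen after seeing the data. Leaving out 1 library gave 1944 to 6601 genes, 0 to 2974 transcripts, 384 to 735 footprint effects, 1506 to 4802 genes for Pelo-/- against control and 1817 to 2663 for Hbs1l-/- against control. DESeq2 called 6268 transcripts, and 1950 genes differed in footprints compared without controls and 2387 with equal-numbered controls counted once, an alternative chosen after seeing the data.

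Same-numbered samples did not all deviate together (correlation -0.104 between the mutants, and 0.0403, 0.18 and -0.13 between control and Hbs1l-/- replicates 1, 2 and 3), and the replicate block gave 3030 genes, 2623 with the length term, 2955 for Pelo-/- against control, and no transcript (0 in edgeR, 5847 at an unadjusted p under 0.05).

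Among the named genes, signs turned only for genes not called between the mutants. Atf4 was 0.0476 with the length term and 0.0030 with block and length, B2m 0.0672 with the length term, and Gspt1 0.0118 with the block and 0.0035 with block and length. Isl1 was 0.0779 with DESeq2, 0.0072 with 8 libraries, 0.0533 with the length term, 0.10 with the block, 0.16 with both and -0.25 to 0.17 without 1 library. The Nnt identifiers gave -0.0215 without a filter, -0.0061 with 11 libraries, -0.0460 with the length term, -0.0410 with block and length, and -0.29 to 0.32 and -0.12 to 0.40 without 1 library. The cardiomyocyte median ran from -0.0075 without Pelo-/- replicate 1 to 1.28 without Hbs1l-/- replicate 2. The causes were not tested. Of the other values of named genes under these alternatives, 2443 kept direction and call, 75 lost the call and 25 gained one. The depth of 23166888 counts or more limits genes of a few counts.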

Other observations

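Many genes of RNA splicing and of the proteasome were also lower in Pelo-/- than in Hbs1l-/- mRNA. Of 38 core spliceosome genes 22 were lower and 2 higher (median log2 difference -0.36), and of 30 SR and hnRNP splicing regulators 17 were lower and 1 higher (median -0.41), beside 16.3% lower over all genes. Without Pelo-/- replicate 1 or 2 the lower counts were 9 and 13 for the spliceosome and 12 and 9 for the regulators. Of 37 proteasome subunit genes 20 were lower and 1 higher (median -0.32), beside the same share, with the control nearer to Hbs1l-/- for 17 of the 21, and 7 were lower with the length term, 6 without Pelo-/- replicate 1 and 4 without replicate 2. Of 42 ribosome biogenesis genes 19 were lower and 2 higher (median -0.22), beside 16.3% and 18.9% of all genes, with 12 lower without Hbs1l-/- replicate 3 and 8 and 5 lower without Pelo-/- replicate 1 or 2, and of 22 aminoacyl-tRNA synthetase genes 11 were lower and none higher (median -0.33), beside 16.3% lower, with 3 and 0 lower without Pelo-/- replicate 1 or 2. Of 19 matrix metalloproteinase and inhibitor genes 6 were higher and none lower (median 0.27), beside 18.9% higher over all genes, and 6 and 5 were higher without Pelo-/- replicate 1 or 2, and 3 lower without Hbs1l-/- replicate 3.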
